A study of Sus scrofa with 44 samples.

Results

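The m6A writer genes are the 9 genes METTL3, METTL14, METTL16, WTAP, VIRMA, RBM15, RBM15B, ZC3H13 and CBLL1, chosen by symbol through their Ensembl pig gene identifiers, out of 22427 genes in the expression tables. All 9 were found and all 9 passed the filter on low values, a mean of 1 TPM or more (a relative level that is corrected for transcript length) over the libraries. The study followed N6-methyladenosine (m6A) in pig RNA with MeRIP-seq, in which RNA is sequenced before (input) and after pull-down with an m6A antibody. Muscle came from the longissimus dorsi of the back, taken 33, 40, 50, 60, 70 or 95 days after coitus (stages E33 to E95), each stage with 3 input and 3 immunoprecipitated samples of rRNA-depleted RNA (36 samples), with no treatment or genetic change named in the labels. The other 8 samples were PK15, a pig kidney cell line, prepared as polyA RNA and as rRNA-depleted RNA. The labels do not say whether the 3 samples of a stage came from separate animals or litters, so p-values measure the spread between these samples, which may be partly technical.

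m6A is the most common internal modification of messenger RNA and is placed mostly within the sequence DRACH (any base but C, then a purine, then A and C, then any base but G). METTL3 is the catalytic subunit, METTL14 is its RNA-binding partner, and WTAP holds both in nuclear speckles. VIRMA, ZC3H13 and CBLL1 (HAKAI) are further regulatory subunits, and RBM15 and its paralog RBM15B bring the complex to RNA. METTL16 is a separate enzyme that methylates a spliceosomal small nuclear RNA and hairpins in the transcript of MAT2A, the enzyme that makes the methyl donor. In muscle cells m6A is known for acting on transcripts of myogenic regulators.

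The depth of the input libraries is unknown because every table sums to 1000000 TPM, and the number of libraries limits the precision. A gene without a symbol, ENSSSCG00000032395, took up 37.4% to 72.4% of each library's TPM, and another, ENSSSCG00000032599, held 17.3% in E40 replicate 2 and 14.4% in E50 replicate 3 against 0.227% to 1.19% elsewhere. Levels are therefore given as scaled TPM, divided by the median ratio of the library's genes to their geometric mean over libraries (factors of 0.305 to 2.01), with the deposited TPM beside the main results. Between E33 and E95 the median of all tested genes moved by -1.02 (log2) as deposited and by -0.00 after scaling, so scaled differences are relative to the median gene. Skeletal muscle markers summed to 3459 to 4071 scaled TPM at E33 and 19644 to 28428 at E95. Of the 9, 7 passed the test as higher, MYH3 was lower (-1.08, limma adjusted p = 0.000186) and MYOG did not pass (-0.08). As deposited, 6 were higher and 2 lower. Summed neuronal markers went from a range of 103 to 133 scaled TPM at E33 to 2.40 to 4.60 at E95, proliferation markers from 71.7 to 82.8 to 24.7 to 33.3, endothelial markers from 32.6 to 36.3 to 96.7 to 101.9, and erythroid markers from 87.1 to 236.6 to 19.1 to 31.8. The erythroid sum was carried by the embryonic globin HBZ (a mean of 129.2 at E33 and 2.06 at E95), and of the 5 erythroid genes 1 passed the test, as lower, with a list median of 0.14 (log2). At E95, HBZ, TUBB3 and STMN2 were listed at 0 in at least 1 library. Fibroblast markers went from a range of 2251 to 3008 to 4787 to 7437, with COL1A1, COL3A1 and DCN higher when scaled (-0.04, -0.25 and -0.24 as deposited) and PDGFRA and LUM lower (5 of 5 called), and immune markers from 29.8 to 37.9 to 38.0 to 61.4. When scaled, 5 of 5 endothelial and 1 of 3 tested immune markers passed as higher. As deposited, 0 of either list passed, with list medians of 0.12 and -0.19. The part of all these markers in the writer gene results was not tested.

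RBM15B was the most abundant writer transcript at every stage, with a mean of 100.1 scaled TPM over the 18 libraries, above 97.1% of the tested genes. ZC3H13 followed with 16.1 (above 80.9% of tested genes), WTAP with 12.3, VIRMA with 10.5, RBM15 with 9.45, METTL3 with 8.57, METTL14 with 6.07, METTL16 with 4.44 and CBLL1 with 4.02 (above 38.2%). RBM15B stood clear of ZC3H13 in all libraries at all 6 stages. ZC3H13 and WTAP overlapped in range at E50 and E95. RBM15 and VIRMA overlapped at E33, E40, E50 and E70, and METTL16 and CBLL1 overlapped at every stage. The catalytic pair was unequal, with METTL3 above METTL14 without overlap of the libraries of a stage at all 6 stages.

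**Figure D1:**
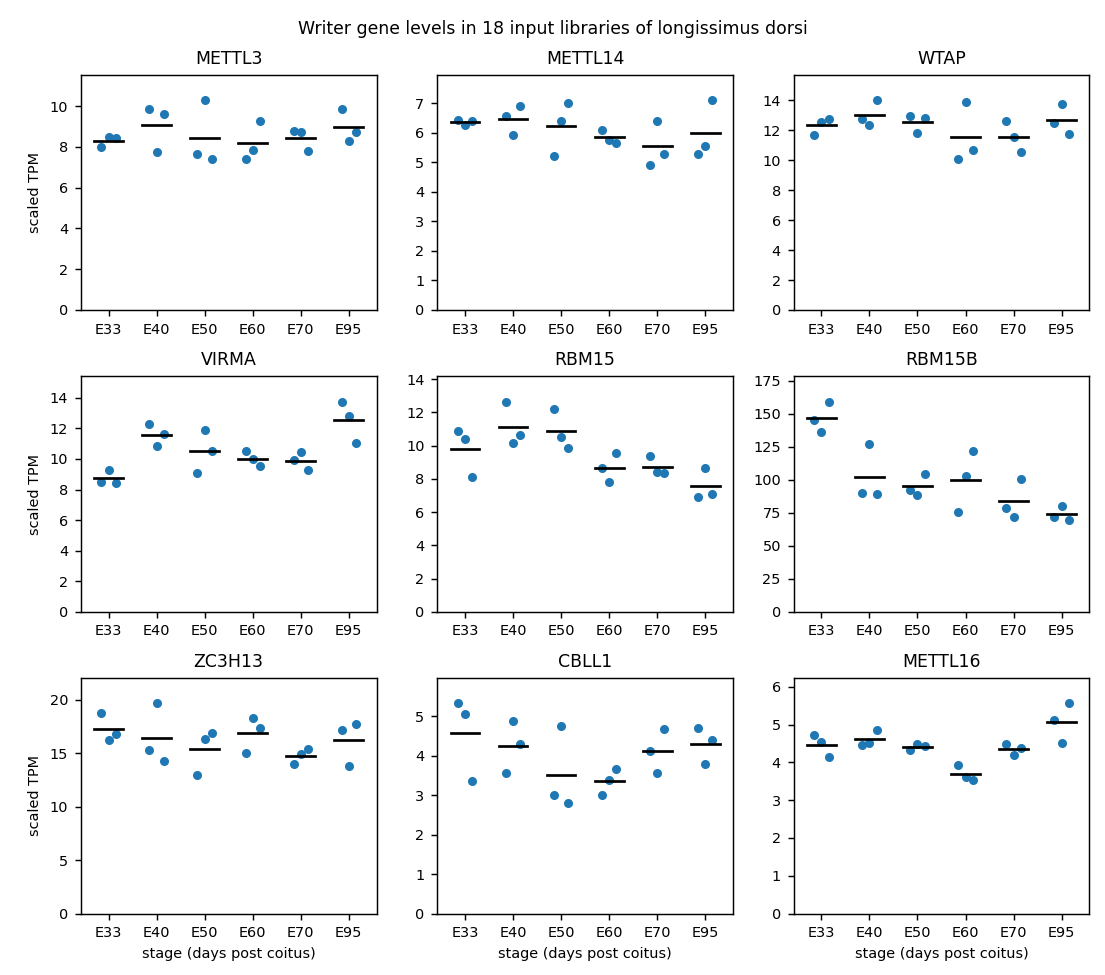
Scaled TPM of the 9 writer genes by stage (x axis, days post coitus), 1 panel per gene, with 3 input libraries per stage as points, the stage mean as a line and the y axis from 0. RBM15B went from 146.8 at E33 to 73.7 at E95, VIRMA was lowest at E33 and highest at E95, and METTL3, METTL14 and WTAP stayed within a narrow band.

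Within the catalytic core no difference between stages passed the test on the scaled values, while METTL14 was lower at E95 as deposited. METTL3 (ENSSSCG00000024445, chr7:77661945-77679459 in Sscrofa11.1, 11 exons) measured 8.004, 8.49 and 8.42 scaled TPM in the 3 libraries of E33 and 9.88, 8.28 and 8.76 at E95. Its stage means ran from 8.18 to 9.07, and the libraries of E33 and E95 overlapped. METTL14 (ENSSSCG00000009113, chr8:105019539-105053603) measured 6.43, 6.28 and 6.38 at E33 and 5.29, 5.55 and 7.12 at E95. The log2 difference of E95 against E33 was 0.10 ± 0.12 (SE) for METTL3 and -0.08 ± 0.11 for METTL14 (limma adjusted p = 0.545 and 0.577, n = 3 each). On the deposited scale these differences were -1.04 ± 0.49 and -1.17 ± 0.44, the latter past the threshold (limma adjusted p = 0.0340). Across the 18 libraries METTL3 and METTL14 correlated with r = 0.119 (Spearman rho 0.143), given as a description of libraries that share 6 stages.

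Of the scaffold and regulatory subunits, VIRMA rose between E33 and E95 on the scaled values, though not as deposited, and the others did not pass the test. WTAP (ENSSSCG00000004050, chr1:7622544-7651732) had stage means of 11.5 to 13.1 scaled TPM, with a difference of 0.04 ± 0.11 (limma adjusted p = 0.815). ZC3H13 (ENSSSCG00000009414, chr11:21298855-21387557) measured 18.8, 16.3 and 16.8 at E33 and 17.2, 13.8 and 17.7 at E95, with a difference of -0.09 ± 0.13 (limma adjusted p = 0.611). CBLL1 (ENSSSCG00000028585, chr9:107456261-107474615), a ubiquitin ligase of the complex, measured 5.33, 5.06 and 3.37 at E33 and 4.69, 3.79 and 4.40 at E95, with a difference of -0.06 ± 0.17 (limma adjusted p = 0.791). The libraries of E33 and E95 overlapped for each of these genes. As deposited, ZC3H13 and CBLL1 passed the test as lower (-1.28 and -1.09, limma adjusted p = 0.0248 and 0.0375).

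VIRMA (ENSSSCG00000006100, chr4:42162424-42236310, listed in RefSeq under its older symbol KIAA1429) is a large scaffold subunit linked to methylation near stop codons and in 3' UTRs. It measured 8.504, 9.25 and 8.42 scaled TPM at E33, 12.3, 10.8 and 11.6 at E40, and 13.8, 12.8 and 11.0 at E95. All libraries of E40 and of E95 lay above those of E33. VIRMA was 0.47 ± 0.10 (log2, SE) higher at E95 than at E33 on the scaled values (limma adjusted p = 0.00121), but -0.68 ± 0.47 as deposited (limma adjusted p = 0.215) and -0.13 after rescaling without the 2 most abundant genes. In bulk tissue, a change in the share of cells that express a gene and a change of RNA per cell cannot be told apart. Against E33, VIRMA was already 0.37 ± 0.10 higher at E40 (scaled, limma adjusted p = 0.0171) and -0.28 ± 0.47 as deposited, and this call was lost when E33 replicate 1 or 3 or E40 replicate 1 or 3 was left out (limma adjusted p = 0.0523 to 0.0714). From E70 to E95 it differed by 0.31 ± 0.10 (limma adjusted p = 0.0522), again with no overlap between the libraries, and by -0.19 as deposited.

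Both RNA-binding adaptors were lower at E95 than at E33, RBM15B by the larger amount. For RBM15 the libraries overlapped and the call on the scaled values depended on single libraries. RBM15B (ENSSSCG00000011420, chr13:33664387-33671047, a single exon) measured 145.3, 136.1 and 159.1 scaled TPM at E33, 89.7, 126.8 and 89.1 at E40, 91.9, 88.4 and 104.2 at E50, 75.4, 102.4 and 121.9 at E60, 78.2, 72.0 and 100.4 at E70, and 71.6, 80.2 and 69.3 at E95. Every E33 library was above every library of the later stages. The fall from 146.8 ± 11.6 (SD, n = 3) to 73.7 ± 5.72 scaled TPM was -0.98 ± 0.18 on the log2 scale (limma adjusted p = 0.00042), and -2.23 ± 0.47 as deposited (249.0 ± 66.9 to 51.2 ± 7.85 TPM, limma adjusted p = 0.00138). A difference of -0.54 ± 0.18 was present from E33 to E40 (limma adjusted p = 0.0470; -1.26 as deposited, limma adjusted p = 0.118), and this call was lost when any 1 library of E33, or E40 replicate 1 or 3, was left out (limma adjusted p = 0.0614 to 0.163).

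RBM15 (ENSSSCG00000006809, chr4:109767464-109791555) measured 10.9, 10.4 and 8.13 scaled TPM at E33 and 6.91, 8.67 and 7.11 at E95. The ranges overlapped, since E33 replicate 3 lay below E95 replicate 2. Its difference of -0.33 ± 0.12 passed the test (limma adjusted p = 0.0409), but not when E33 replicate 1 or 2 or E95 replicate 1 or 3 was left out (-0.29 to -0.26, limma adjusted p = 0.112 to 0.147), nor in a fit of those 2 stages alone (limma adjusted p = 0.117). As deposited, RBM15 differed by -1.46 ± 0.47 at E95 against E33 (limma adjusted p = 0.0173). On the scaled values its highest stage mean was 11.14 at E40, and its difference between E40 and E33 was 0.17 ± 0.12 (limma adjusted p = 0.349). Whether the paralogs differ in that step was not tested.

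METTL16 (ENSSSCG00000017832, chr12:48491254-48567253) measured 4.72, 4.55 and 4.14 scaled TPM at E33, 3.93, 3.61 and 3.52 at E60, and 5.13, 4.52 and 5.56 at E95. On the scaled values E60 was the lowest stage, with its libraries below all those of E50 and E70, while as deposited E60 was 0.40 above E50. METTL16 passed the test across all stages (limma moderated F test, adjusted p = 0.0157), while its steps of -0.21 at E60 against E50, 0.19 at E70 against E60 and 0.18 at E95 against E70 did not pass (limma adjusted p = 0.249, 0.263 and 0.132).

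Over the whole list, 3 of 9 writer genes passed the test between E95 and E33 on the scaled values, 1 higher and 2 lower, against 46.7% of all tested genes (22.8% higher and 23.8% lower). The writer median was -0.06 (log2) beside -0.00 for all genes. As deposited, 5 of 9 were called, all lower, against 45.8% of genes called lower on that scale, and the writer median was -1.14 beside -1.02. Between E40 and E33, 2 of 9 were called, against 21.0% of genes (10.1% higher and 10.9% lower). The comparisons E40 against E33 and E95 against E33 share the E33 libraries. No writer gene passed in limma between E50 and E40, E60 and E50, E70 and E60 or E95 and E70, where 1.54%, 0.817%, 1.76% and 13.5% of genes were called (for E95 against E70, 6.61% were higher and 6.87% lower). Without adjustment, limma gave a p under 0.05 for 0, 2, 1 and 2 writer genes for those 4 comparisons. The same held for 1855, 1588, 1711 and 3582 of the 13334 tested genes. Across the 6 stages METTL16, VIRMA, RBM15 and RBM15B passed (4 of 9, against 47.5% of genes), with adjusted p = 0.0157, 0.0131, 0.0222 and 0.00641 in the limma F test. On the deposited scale RBM15B alone of the 9 passed that test (limma adjusted p = 0.0212).

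**Figure D2:**
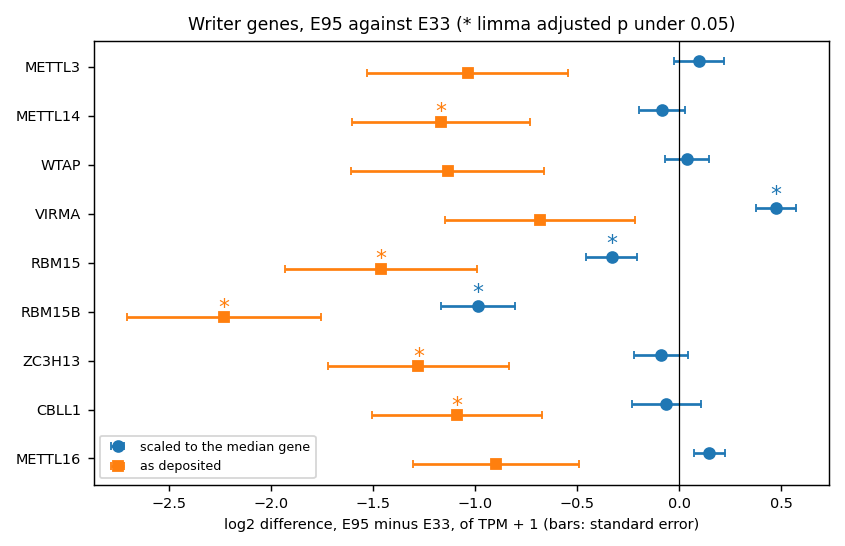
Difference of E95 minus E33 (x axis, log2 of TPM + 1) for the 9 writer genes, with standard errors as bars, for scaled values (circles) and deposited values (squares); a star marks a limma adjusted p under 0.05. RBM15B was lowest on both scales, at -0.98 and -2.23, and VIRMA was the highest on both, at 0.47 and -0.68.

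Ratios between writer genes within a library do not depend on how that library was scaled, apart from the pseudocount of 1. The log2 ratio of RBM15B to METTL3 was 3.85 to 4.09 in the E33 libraries and 2.74 to 3.13 in the E95 libraries, a difference of -1.08. For VIRMA it was 0.00 to 0.11 at E33 and 0.30 to 0.57 at E95, a difference of 0.38. In both cases the groups did not overlap, and the exact two-sided permutation p was 0.10, the smallest that 3 against 3 can give (0.40 after Benjamini-Hochberg adjustment over 8 ratios). RBM15 to METTL3 differed by -0.43 (exact permutation p = 0.20) with overlapping groups. The ratios of METTL14, METTL16, WTAP, ZC3H13 and CBLL1 to METTL3 moved by -0.19 to 0.05, with exact permutation p = 0.30 to 0.60.

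**Figure D3:**
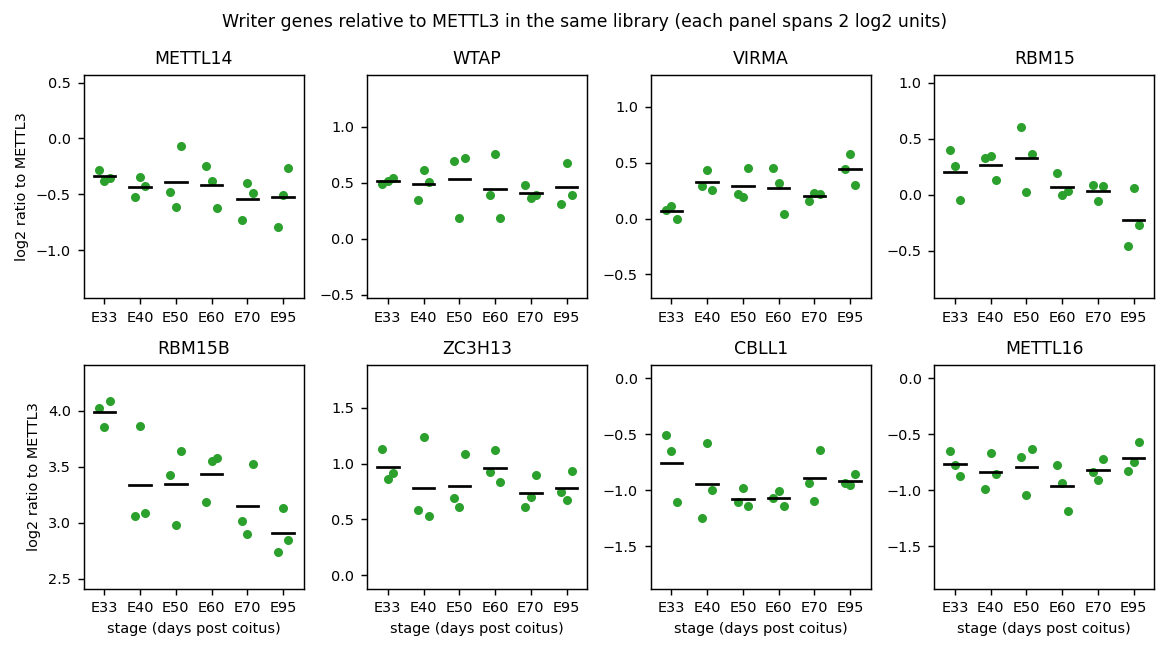
Log2 ratio of 8 writer genes to METTL3 in the same input library (y axis, 2 log2 units per panel) by stage (x axis), with libraries as points and stage means as lines. The RBM15B ratio went from a mean of 3.99 at E33 to 2.91 at E95 and the VIRMA ratio from 0.06 to 0.44, while the WTAP ratio had means of 0.41 to 0.53 at every stage.

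The genes whose levels were most like each writer gene were taken as the 2 highest Pearson correlations of log2 scaled TPM over the 18 libraries, which share stages and cell makeup. As the top of a search over many genes, these values are high by selection and were not tested. RBM15B was most like PLEKHG2 and NOLC1 (r = 0.949 each, and 0.875 and 0.925 within stages). VIRMA was most like RWDD4 and MAT2B (r = 0.905 and 0.875, and 0.773 and 0.766 within stages). RBM15 was most like HAS2 and NUF2 (r = 0.853 and 0.850, and 0.460 and 0.688 within stages). For METTL3 the most similar genes were PPP2R2A and TIPRL (r = 0.791 and 0.781), and for METTL14 MAP2K4 and NRDC (r = 0.785 and 0.764). For METTL16 they were DENND6A and PLIN2 (r = 0.825 and 0.803, and 0.624 and 0.451 within stages). WTAP had the lowest best match, C19orf38 with r = 0.693, followed by DUT with r = 0.676. ZC3H13 was most like GTPBP1 (r = 0.770), and CBLL1 most like PDHX and TGS1 (r = 0.717 and 0.688). Within stages, r for the matches of METTL3, METTL14, WTAP, ZC3H13 and CBLL1 ran from 0.604 to 0.817. Among the writer genes themselves, r ran from -0.667 (VIRMA with RBM15B) to 0.528 (METTL3 with VIRMA).

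Of the other m6A regulators, 14 of 15 listed genes were matched and tested, and 7 passed between E95 and E33 on the scaled values, 3 higher and 4 lower, beside the 46.7% of all tested genes called (22.8% higher and 23.8% lower). As deposited 8 passed, all lower, beside 45.8% of all genes. The readers IGF2BP1, IGF2BP2 and IGF2BP3, which bind m6A-marked messenger RNA, fell by 3.88, 1.51 and 1.25 on the log2 scale (limma adjusted p = 1.22e-10, 2.32e-07 and 2.04e-07), from means of 22.2, 21.95 and 12.01 scaled TPM at E33 to 0.585, 7.15 and 4.49 at E95. The eraser FTO fell by 0.26 (limma adjusted p = 0.0278), a call lost without E33 replicate 2 or E95 replicate 1 or 2 (limma adjusted p = 0.0974 to 0.110). The eraser ALKBH5 and the readers YTHDC1 and YTHDC2 were 0.38, 0.31 and 0.53 higher when scaled (limma adjusted p = 0.0374, 0.0449 and 0.000974), but -0.80, -0.82 and -0.43 as deposited. The ALKBH5 call was lost when any 1 library of E33 or E95 replicate 2 was left out (limma adjusted p = 0.0502 to 0.175), and the YTHDC1 call without replicate 1 or 3 of either stage (limma adjusted p = 0.0791 to 0.168). Of 8 genes for methyl donor supply and other adenosine methyltransferases, 3 passed, again beside 46.7% of all genes. MAT2A and MAT2B, the subunits of methionine adenosyltransferase, were 0.83 and 1.06 higher when scaled (limma adjusted p = 3.92e-05 and 7.77e-05) and -0.41 and -0.02 as deposited, and AHCY, which removes the by-product of methylation, fell by 0.86 (limma adjusted p = 0.000327).

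The transcripts of 7 of the 9 writer genes carried m6A peaks themselves at every stage. Peaks were called by the authors, with 1 list per stage and per PK15 preparation, so peak counts and fold enrichments (immunoprecipitated over input, the authors' values) have no replicates and no test. METTL16, WTAP, VIRMA, RBM15, RBM15B, ZC3H13 and CBLL1 had at least 1 peak in all 8 lists. Of the genes whose stage mean reached 1 TPM, a peak was listed for 33.5%, 22.9%, 32.6%, 31.7%, 35.6% and 37.5% in the 6 stages in order, and 22.2% of genes above that level at every stage had a peak in all 6 lists. METTL3 and METTL14 had none in the 6 muscle lists or in PK15 rRNA-depleted RNA, and both had peaks in PK15 polyA RNA, where 9 of 9 writer genes did. Of all genes in the tables, 37.7% had a peak in the PK15 polyA list and 23.7% in the rRNA-depleted one. Unlike the shares of the stages, these carry no filter on level, because levels in PK15 cells were not used. They include genes that PK15 cells may not express, so they are a low background for the writer counts. A gene without a listed peak may still carry m6A.

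The writer peaks numbered 21, 15, 15, 19, 22 and 20 in the 6 stages in order, against 8685, 4928, 7058, 7545, 8499 and 8109 peaks in the whole muscle lists. In the PK15 polyA and rRNA-depleted lists they numbered 26 and 20, against 16492 and 9659 peaks in the whole lists. Placed by the midpoint on the RefSeq transcript with the longest coding sequence, 95 of the 112 muscle peaks lay in coding sequence, 14 within 200 bases of the stop codon and 3 in a 3' UTR. The split depends on the midpoint, and some peaks counted as coding had an edge within 200 bases of the stop codon. The main WTAP peak did so at all 6 stages, with its nearest base at position -32 or -92. A site listed at several stages counts each time, and ZC3H13, RBM15B and RBM15 gave 37, 21 and 19 of the peaks. The places of all listed peaks are not given here, so these counts show no preference of writer transcripts. All 15 of E40 overlapped a peak of E50 in the same gene by at least 1 base, beside 91.0% of all listed peaks of E40, and 12 of the 21 of E33 overlapped one of E40, beside 49.7%. With PK15 rRNA-depleted RNA, 21 of 21, 15 of 15, 15 of 15, 18 of 19, 20 of 22 and 20 of 20 writer peaks overlapped in the 6 stages in order, beside 64.9%, 71.9%, 67.6%, 66.1%, 63.9% and 64.9% of all listed peaks. Counting only overlaps of at least 50% of the shorter peak, E95 had 18 of 20 and the other counts with PK15 stayed the same. These lists have no replicates, and the difference was not tested.

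**Figure D4:**
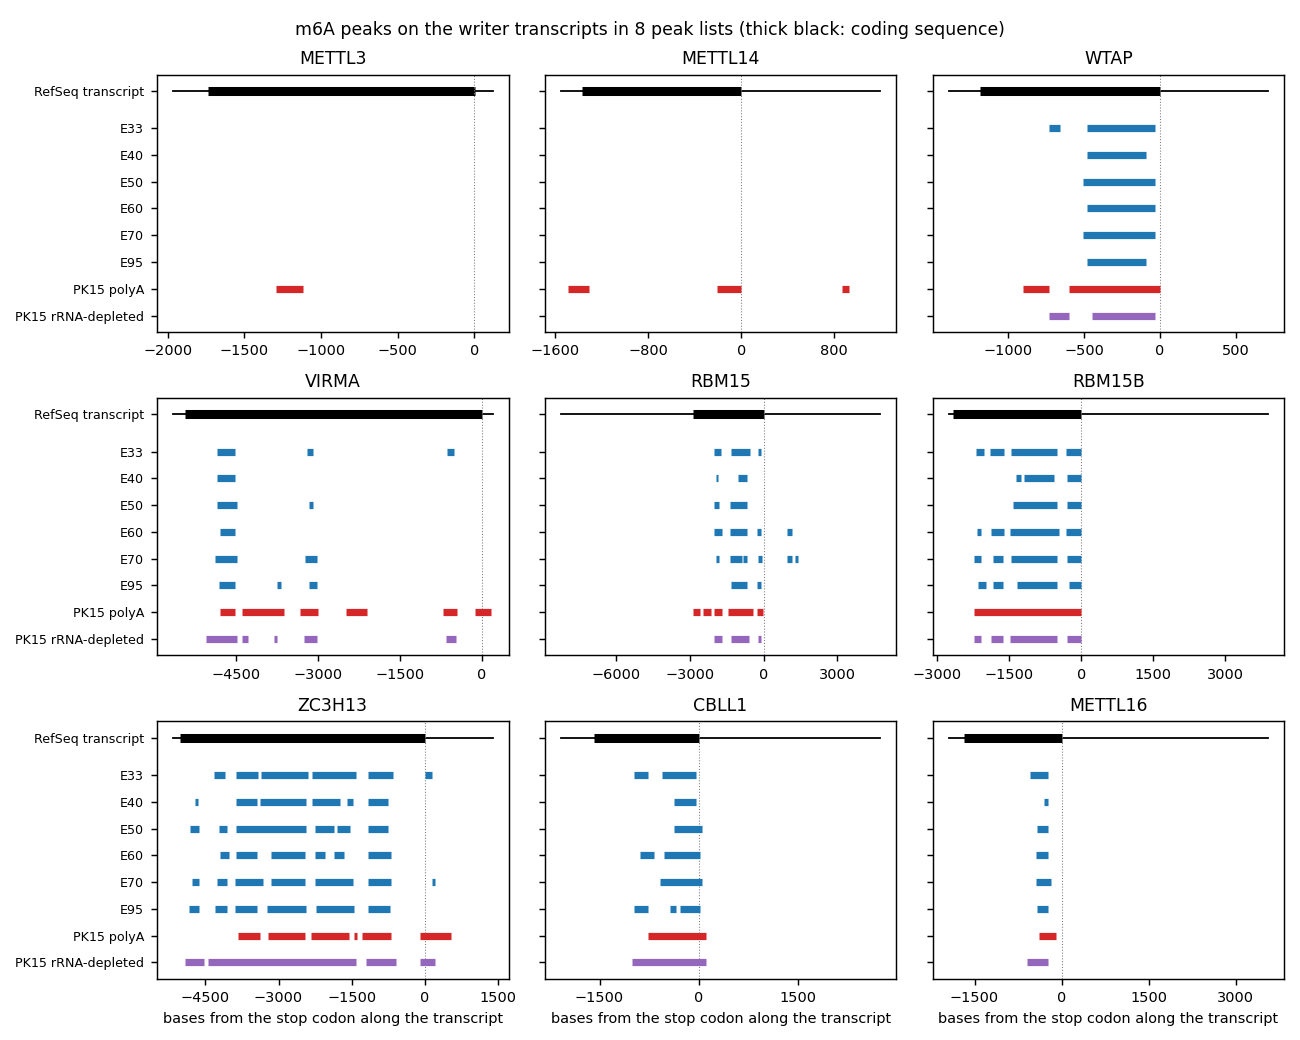
Positions of the deposited peaks on the 9 writer transcripts (x axis, bases from the stop codon along the RefSeq transcript; rows, the 6 muscle lists in blue and the PK15 polyA and rRNA-depleted lists in red and purple; top bar, the transcript with coding sequence thick). METTL3 and METTL14 carry peaks in the PK15 polyA row alone, the last RBM15B peak ends at the stop codon in every row, and the RBM15 3' UTR peaks stand at E60 and E70.

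Sequences under the peaks of 7 genes are printed in turn, read from the Sscrofa11.1 RefSeq genome and written in the sense of the transcript, with DRACH matches in capitals. A match is a description of the letters and not a mapped site. Among 19534 coding transcripts of RefSeq, DRACH occurs 18.8 times per 1000 bases in all and GGACT, its most cited form, 0.98 times. Stretches of about 180 bases hold a DRACH in 95.4% of windows of that length. On the opposite strand the printed sequences hold 0 to 4 DRACH matches each.

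The catalytic core comes first, because its peaks occurred in a single list, and the METTL3 peak is printed. METTL3 had 1 PK15 polyA peak of 180 bases in exon 3, in coding sequence (fold enrichment 4.22, above the highest fold of 14.1% of the genes in that list), with 4 DRACH matches of which 1 is GGACT. Of windows of that length, 15.8% hold that form. METTL14 had 3 peaks in that list, in the 5' UTR (fold 4.04), next to the stop codon (4.42) and in the 3' UTR (3.80).
METTL3, chr7:77673412-77673591, plus strand: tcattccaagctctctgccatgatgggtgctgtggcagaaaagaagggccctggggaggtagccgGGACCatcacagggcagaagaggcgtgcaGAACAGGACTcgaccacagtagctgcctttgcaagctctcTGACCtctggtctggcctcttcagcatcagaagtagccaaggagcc

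WTAP had 1 peak in each of the E40, E50, E60, E70 and E95 lists and 2 at E33, and the main one lay in exon 8, in the later part of the coding sequence. Its fold was 5.63, 6.69, 10.5, 5.62, 6.37 and 5.44 in the 6 stages in order, and 21.4 in PK15 polyA RNA. A stretch of 388 coding bases (chr1:7623352-7623739), at positions -479 to -92 counted from the first base of the stop codon, was under a peak at all 6 stages and held 12 DRACH matches of the 49 in the transcript. The 30 bases around its GGACT are printed (2.53% of 30-base windows hold one).
WTAP, chr1:7623671-7623700, minus strand: cgagcaccagcaGGACTccgtctgagcctg

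VIRMA had 1 to 3 peaks per stage, with highest folds of 4.06, 6.07, 7.99, 3.16, 6.02 and 6.61 in the 6 stages in order. A peak over exons 7 and 8, far upstream of the stop codon, was present at all 6 stages, and one in exon 9 at E33, E50, E70 and E95. The exon 9 peak held 3 DRACH matches at E33 and E50 and 6 at E70 and E95, 1 of them GGACT each time. No stage had a VIRMA peak near the stop codon, and PK15 polyA RNA had one (fold 5.10).

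ZC3H13 had the most peaks, 6 or 7 per stage, placed from exon 4 to the last exon, 20, and 1684 of its 6551 transcript bases were under a peak at all 6 stages. These held 51 of its 163 DRACH matches and 4 of its 5 GGACT. Its highest fold was 20.4 at E33 (a peak of 151 bases at the stop codon, above 99.4% of listed genes), then 7.71, 9.15, 8.72, 15.2 and 8.17 in the later stages in order, and 103 in PK15 polyA RNA (exon 13). The E70 value came from a peak of 61 bases at positions 146 to 206, and E33 and E70 were the only stages with a peak near the stop codon. By the authors' peak p-values (their test is not given), these top-fold peaks were the weakest of ZC3H13 in their lists. The values were 2.1e-10 at E33, against 5.0e-39 or lower for its other peaks, and 2.5e-05 at E70, against 1.3e-10 or lower. The stretch printed, from exon 15, was under a peak in all 8 lists and has 7 DRACH matches, 1 of them GGACT (found in 15.9% of windows of that length).
ZC3H13, chr11:21371323-21371503, plus strand: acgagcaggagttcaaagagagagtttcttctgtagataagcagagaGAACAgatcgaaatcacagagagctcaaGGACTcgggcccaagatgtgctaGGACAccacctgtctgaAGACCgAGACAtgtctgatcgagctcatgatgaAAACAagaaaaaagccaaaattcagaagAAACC

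CBLL1, the least abundant writer transcript on average, had among the highest folds. Its top peak in the last exon had a fold of 14.5, 9.52, 30, 23.1, 21.0 and 19.1 in the 6 stages in order, above the highest fold of 92.5% to 99.4% of the listed genes of each stage. In PK15 cells it was 6.31 with polyA RNA, above 26.9% of listed genes, and 9.82 with rRNA-depleted RNA. The 240 bases under a peak in all 8 lists lay at positions -290 to -51 and held 4 DRACH matches and no GGACT in the sense direction (a GGACT occurs in 20.5% of windows of that length); the opposite strand held 4 DRACH matches, 1 of them GGACT. At E95 the top fold belonged to a peak of 91 bases beside one of 300 bases with a fold of 5.23. By the authors' peak p-values (their test is not given), the 91-base peak was the weakest of CBLL1 at E95, with 1.1e-06 against 3.3e-09 for the 300-base peak.
CBLL1, chr9:107471587-107471826, plus strand: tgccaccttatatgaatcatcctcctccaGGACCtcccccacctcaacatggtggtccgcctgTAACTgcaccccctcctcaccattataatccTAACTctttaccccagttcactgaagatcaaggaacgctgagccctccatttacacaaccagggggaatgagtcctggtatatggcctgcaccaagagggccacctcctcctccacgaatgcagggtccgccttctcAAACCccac

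RBM15B had 2 to 4 peaks per stage, covering 1046 to 1761 bases. A central coding stretch of 627 bases (chr13:33665961-33666587) was under a peak in all 8 lists, with 22 DRACH matches. A second stretch of 269 bases ran to the last base of the stop codon in all 8 lists, and none of the 8 lists had a peak in the 3894 bases of 3' UTR that RefSeq gives the gene. Whether the annotation used for peak calling reached past the stop codon was not tested. The highest fold per stage was 6.41, 9.56, 13.7, 11.2, 8.09 and 10.2 in the 6 stages in order, above 81.3% to 93.5% of listed genes. The stage with the highest RBM15B level, E33, had its lowest peak fold. The median fold of the whole E33 list was also the lowest of the 6 stages, at 3.51 against 4.06 to 4.88. Ranked within its list, RBM15B stood above 84.8% of listed genes at E33 and was lowest at E70 (81.3%). A link between level and fold was not tested. Peaks in the first part of the coding sequence were listed at E33, E60, E70 and E95 and not at E40 and E50.

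RBM15 had 2 to 6 peaks per stage, with highest folds of 5.35, 4.24, 5.64, 38.5, 14 and 7.02 in the 6 stages in order. The E60 value came from a peak of 180 bases at positions -275 to -96. Peaks near the stop codon had folds of 4.95 at E33, 6.64 at E70 and 5.35 at E95, and there was none in the lists of E40 and E50. The E60 value was above the highest fold of 99.95% of the genes in its list. At E60 and E70 RBM15 had a 3' UTR peak at positions 964 to 1143 (folds 7.39 and 3.60), and at E70 another with a fold of 14. These were absent from the other 6 lists. By the authors' peak p-values (their test is not given), the E70 peak with a fold of 14 was the weakest of RBM15 at E70. Its value was 3e-07, against 1.3e-08 or lower for the others there. The E60 peak with a fold of 38.5 had 7.9e-14, against 6.3e-24 to 2e-11 for the others at E60. Coding stretches of 150 and 151 bases were under a peak in all 8 lists, each with 5 DRACH matches.

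In a local alignment of the RBM15 peak of E60 with the RBM15B stretch that ends at the stop codon, 113 of 160 aligned bases were identical (70.6%), and the longest identical run was 14 bases. In a global alignment of the whole coding sequences, 1645 of 2630 aligned bases were identical (62.5%), and the longest run was also 14. A local alignment keeps the best-matching part, and the difference was not tested. The RBM15 peak and the RBM15B stretch are printed with the 30 bases around the GGACT of the central RBM15B stretch and with an RBM15 stretch that all 8 lists share.
RBM15, chr4:109783391-109783570, minus strand: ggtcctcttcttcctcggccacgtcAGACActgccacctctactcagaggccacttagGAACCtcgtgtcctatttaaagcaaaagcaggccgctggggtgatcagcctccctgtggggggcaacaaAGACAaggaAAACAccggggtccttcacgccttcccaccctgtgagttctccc
RBM15B, chr13:33666885-33667153, plus strand: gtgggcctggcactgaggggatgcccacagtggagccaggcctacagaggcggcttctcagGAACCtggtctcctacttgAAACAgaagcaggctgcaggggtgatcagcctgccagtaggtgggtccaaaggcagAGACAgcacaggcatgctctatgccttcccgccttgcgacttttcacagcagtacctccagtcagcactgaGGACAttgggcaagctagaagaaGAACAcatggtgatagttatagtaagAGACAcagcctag
RBM15B, chr13:33666115-33666144, plus strand: cttcttggaaggGGACTGGACCagccccag
RBM15, chr4:109784199-109784349, minus strand: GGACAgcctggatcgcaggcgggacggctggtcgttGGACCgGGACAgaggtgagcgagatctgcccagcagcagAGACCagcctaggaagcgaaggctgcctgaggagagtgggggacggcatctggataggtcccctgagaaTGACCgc

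METTL16 had a single peak in each list in exon 11, the last, covering positions -298 to -238 in all 8. Its fold was 3.01, 2.76, 4.52, 3.50, 5.71 and 3.36 in the 6 stages in order, above 10.3% to 58.9% of listed genes, the lowest standing of the 7 writer genes at every stage but E60. The peak had 61 bases at E40 and 181 to 300 at the other stages. The 61 bases shared by all 8 lists held no DRACH match (66.6% of windows of that length hold one), and the other 7 lists reached a GGACT farther from the stop codon, printed second with 30 bases.
METTL16, chr12:48503223-48503283, minus strand: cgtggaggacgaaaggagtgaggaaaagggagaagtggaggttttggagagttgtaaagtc
METTL16, chr12:48503299-48503328, minus strand: tggcccAAACCaGGACTtgctttcccagga

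**Figure D5:**
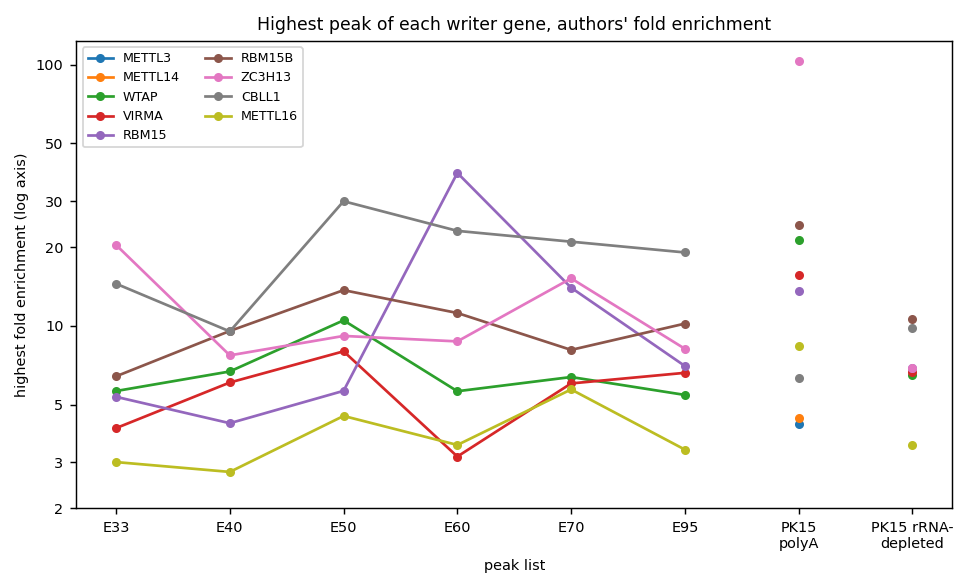
Highest fold enrichment of each writer gene in each peak list (y axis, log scale; x axis, the 6 stages joined by lines, then the PK15 lists as single points), 1 value per list and no replicates. CBLL1 lies between 9.52 and 30 over the stages, RBM15 reaches 38.5 at E60, METTL16 stays between 2.76 and 5.71 over the stages, and METTL3 and METTL14 have points in PK15 polyA RNA alone.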

How the data were processed

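The 18 muscle input libraries and 8 peak lists were used. Per the submitters' processing notes, reads were processed with Trimmomatic and HISAT2 on Sscrofa11.1; versions, peak caller, annotation and pooling of samples are not given in the sources used here. The authors deposited TPM per gene, and per the file headers a fold enrichment (ratio) and a p-value per peak. TPM keeps no depth, so sequencing depth is unknown. TPM was divided by median-ratio size factors. Genes whose mean reached 1 TPM (13334 of 22427) were tested as log2(scaled TPM + 1) with limma 3.58.1 (R 4.3.3, mean-variance trend, all 6 stages in 1 fit, no block, Benjamini-Hochberg adjusted p under 0.05); fold changes on this scale understate the change of low genes. In simulated data for E95 against E33, 95% of genes changed by 2 (log2) and 78% of those changed by 1 were called, of 200 in all. These 200 stood among 13334 tested genes, against 46.7% of genes called in the data. No size below 1 is reported, so these shares say nothing of the smaller differences of most writer genes. The 200 were drawn from genes above a set mean level, which METTL14, METTL16 and CBLL1 did not reach. The shares therefore do not cover changes of any size in these genes. Same-numbered libraries did not deviate together (r = -0.124 to 0.101 over 45 pairs). Peak starts were read as zero-based, since 80.3% to 90.6% of block junctions then fell on RefSeq introns. Peaks were placed with Python 3.11.15, pysam 0.24.0 and Biopython 1.88 on RefSeq transcripts, with "near the stop codon" meaning a midpoint within 200 bases. A single duplicated peak row was dropped. The genes named are the 9 writer genes, the called members of 2 lists (other m6A regulators; methyl donor and other methyltransferase genes) and the 2 genes most correlated with each writer gene. A correlated gene and some peak sequences are not reported here. Members and lists were chosen with earlier results of these data known.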

Additional observations from a re-analysis of the deposited data

How the results depend on the processing

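Scaling decided most calls. Between E95 and E33, the 3 writer genes called became 5 with TPM as deposited and 8 when TPM was recomputed leaving out the 2 most abundant genes, all lower, and 2 to 4 when 1 library was left out. As deposited, 45.8% of all tested genes were called lower too, with a median of -1.02. The share of all genes called after the rescaling is not given here, so its counts do not set the named genes apart from other genes. Between E40 and E33, the 2 called became 0 as deposited, and 1 after that rescaling, with no filter on low values or with only the 2 stages in the fit, and 0 to 2 when 1 library was left out. Between E95 and E70, the 0 called in limma became 1 with a pseudocount of 5 or a mean of at least 5 TPM. With 1 library left out, 0 to 1 were called. At an unadjusted p under 0.05 limma gave 2 writer genes, beside 3582 of 13334 tested genes. Across stages, the 4 called became 1 as deposited and 3 to 4 when 1 library was left out. The 7 other regulators called (3 higher, 4 lower) became 11 after rescaling and 8 as deposited, all lower. With quantile normalization 1 was higher and 6 were lower, with ALKBH5 and YTHDC1 no longer called (limma adjusted p = 0.0519 and 0.0832). Leaving out 1 library left 5 or 6 called, 1 or 2 of them higher; the calls lost among the higher ones were ALKBH5 and YTHDC1. A setting chosen after seeing the data, TPM as deposited without E40 replicate 2 and E50 replicate 3, called 9 writer genes (E95 against E33), 0 (E40 against E33), 1 (E95 against E70) and 9 (across stages), and 13 other regulators. The share of all genes called in that setting is not given here either.

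For E95 against E33, these log2 differences turned negative after rescaling without the 2 most abundant genes: METTL3 -0.49, METTL16 -0.39, WTAP -0.57, VIRMA -0.13, ALKBH5 -0.24, YTHDF1 -0.53, YTHDF3 -0.45, YTHDC1 -0.28, HNRNPA2B1 -0.60, TRMT112 -0.33, METTL5 -0.16, ZCCHC4 -0.0075 and PCIF1 -0.32. As deposited all of these were negative too: METTL3 -1.04, METTL16 -0.90, WTAP -1.14, VIRMA -0.68 (and -0.28 at E40), ALKBH5 -0.80, YTHDF1 -1.10, YTHDF3 -0.99, YTHDC1 -0.82, HNRNPA2B1 -1.20, TRMT112 -0.93, METTL5 -0.67, ZCCHC4 -0.38 and PCIF1 -0.88, and so were YTHDC2 -0.43, MAT2A -0.41 and MAT2B -0.024. RBM15B stayed lower, at -1.64 after rescaling and -1.04 to -0.93 when 1 library was left out. A fit with the replicate number as a block called 3 writer genes (E95 against E33), 2 (E40 against E33) and 4 (across stages), and 7 other regulators, as the fit without the block did. Equal counts do not show whether the numbers pair samples across stages. TPM keeps no depth, so counting error could not be given, and each peak list stands alone.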
